A study of Homo sapiens with 7 samples.

Results

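The transcriptome of HepG2, a human liver cancer cell line, was described from 1 RNA-Seq sample. Its members are the rows of the deposited expression table that carry a gene symbol and a value of at least 1 FPKM in both columns of values. FPKM counts fragments per kilobase of transcript, scaled to the mapped fragments, and is a level per length, so that levels of different genes can be set side by side. Of 30032 rows, 23303 carry a symbol, and 11172 of these, or 47.9%, are members. The members were selected on, and ranked by, these FPKM values, so their levels are given as a description, with no test. The 2 columns, here called run 1 and run 2, belong to the same sample and count as 1 replicate. There was no treatment and no other group of cells to compare. RNA was total RNA from which ribosomal RNA had been removed, and all values come from 1 line of cultured cells, with no normal liver beside it. From the same line, 5 ChIP-Seq libraries, 1 per histone mark, were also used, and none of the samples is replicated.

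Hepatocytes, the main cells of the liver, make most proteins of blood plasma, clear drugs and toxins, and run the urea cycle, bile acid synthesis and the release of glucose. In fetal liver the same cells secrete alpha-fetoprotein and use other isoenzymes, and liver cancer cells often return to parts of that pattern. Any dividing cell also spends much of its mRNA on ribosomes, since the protein parts of each ribosome must be translated from their own mRNAs.

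The 5 members with the highest FPKM were ALB, FTL, APOA2, AFP and EEF1A1. ALB, which encodes serum albumin, stood at 9933 FPKM in run 1 and 10088 in run 2, and held 2.16% of the summed FPKM of all members. FTL, the light chain of the iron store ferritin, followed at 8005 and 8119 FPKM. APOA2, an apolipoprotein of high-density lipoprotein, stood at 5095 and 5323 FPKM. AFP, the fetal counterpart of albumin, stood at 3732 and 3864 FPKM, and EEF1A1, which brings aminoacyl-tRNA to the ribosome, at 3781 and 3700 FPKM. AFP and EEF1A1 changed places between the runs, so their order is not fixed by these values. ALB lies at chr4:74269690-74287767 and AFP at chr4:74301933-74321492 in hg19, the build named in the submitters' processing notes. The other rows of the 30 highest ran from RPL37A, a protein of the large ribosomal subunit, at 2929 and 3134 FPKM, to the row of RPL27 and RUNDC1 at 1380.4 and 1407 FPKM.

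Among the 30 highest rows, 16 encode cytosolic ribosomal proteins and 6 encode plasma proteins (ALB, AFP, AHSG, APOA2, APOH and APOA1). APOH, which binds phospholipids, stood at 2057 and 2089 FPKM. AHSG, or fetuin-A, a carrier of calcium phosphate, stood at 1476 and 1469.8 FPKM, and APOA1, the main protein of high-density lipoprotein, at 1404 and 1450.4 FPKM. The other 8 rows were FTL, its partner FTH1 (ferritin heavy chain), EEF1A1, TPT1 (translationally controlled tumour protein), GAPDH of glycolysis, the mitochondrial rRNA-like locus MTRNR2L2 and a pair of small RNA rows. GAPDH, often used as a reference gene, stood at 1686 and 1660.5 FPKM at rank 22.

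The DNA around the start sites of the leading genes is shown so that the promoters of the plasma protein genes and of the translation genes, which share the top ranks, can be read side by side. The sequences are RefSeq promoters in GRCh38.p14, from 45 bases before the annotated start to 10 bases of the transcript, written 5′ to 3′ on the strand of the gene. Capitals mark TATA where it lies between 45 and 15 bases before the start, and the first 5 transcribed bases where all of them are C or T.
ALB (chr4:73404242-73404296, plus strand): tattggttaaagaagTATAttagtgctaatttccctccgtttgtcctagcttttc
APOA2 (chr1:161223619-161223673, minus strand): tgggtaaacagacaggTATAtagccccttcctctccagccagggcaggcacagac
AFP (chr4:73436176-73436230, plus strand): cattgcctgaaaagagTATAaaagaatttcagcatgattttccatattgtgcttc
APOH (chr17:66229406-66229460, minus strand): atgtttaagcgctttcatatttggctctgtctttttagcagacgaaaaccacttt
AHSG (chr3:186613015-186613069, plus strand): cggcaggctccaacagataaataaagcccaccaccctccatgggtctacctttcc
EEF1A1 (chr6:73521023-73521077, minus strand): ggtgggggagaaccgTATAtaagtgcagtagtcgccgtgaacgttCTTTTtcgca
TPT1 (chr13:45341174-45341228, minus strand): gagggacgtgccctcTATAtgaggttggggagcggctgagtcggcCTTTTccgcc
RPL37A (chr2:216498799-216498853, plus strand): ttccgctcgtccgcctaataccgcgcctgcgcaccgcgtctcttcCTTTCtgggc
RPS29 (chr14:49598701-49598755, minus strand): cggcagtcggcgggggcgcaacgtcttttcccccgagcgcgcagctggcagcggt
RPS12 (chr6:132814524-132814578, plus strand): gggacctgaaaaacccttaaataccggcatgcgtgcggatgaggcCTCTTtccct
RPS27 (chr1:153990717-153990771, plus strand): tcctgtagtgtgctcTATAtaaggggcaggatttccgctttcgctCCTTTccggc
RPLP1 (chr15:69452773-69452827, plus strand): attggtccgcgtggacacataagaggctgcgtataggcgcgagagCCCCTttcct
RPL41 (chr12:56116588-56116642, plus strand): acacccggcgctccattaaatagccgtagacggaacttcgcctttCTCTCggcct
RPS7 (chr2:3575215-3575269, plus strand): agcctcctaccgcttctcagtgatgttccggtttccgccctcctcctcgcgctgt

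A start in a run of pyrimidines, the terminal oligopyrimidine (TOP) motif, is known from mRNAs of the translation machinery. Of the 30 highest rows, 22 have a single promoter in the table, and 13 of these have 5 pyrimidines at the start. The promoters shown for RPS29 and RPS7 do not. Promoters were matched by symbol and not by position, so an annotated start need not be the start used in these cells. TATA was found in 7 of the 22, searched on the strand of the gene. Among all 35116 promoters of the table, 5.17% begin with 5 pyrimidines and 6.71% have TATA in that window. Nothing is read from the 22 beside these shares. The rest of the 30 rows have no single promoter there, and genes with several promoters count more than once in the shares. Most of the 22 are also genes of the translation machinery, from which the motif is known. Promoter counts over larger sets were not compared. Fewer than 80% of the single-symbol rows of most sets had a promoter in the table, with 72.8% at ranks 1 to 100 and 73.3% of the plasma protein members, which makes such a check void. A match describes the letters and does not show that a factor binds there.

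**Figure D1:**
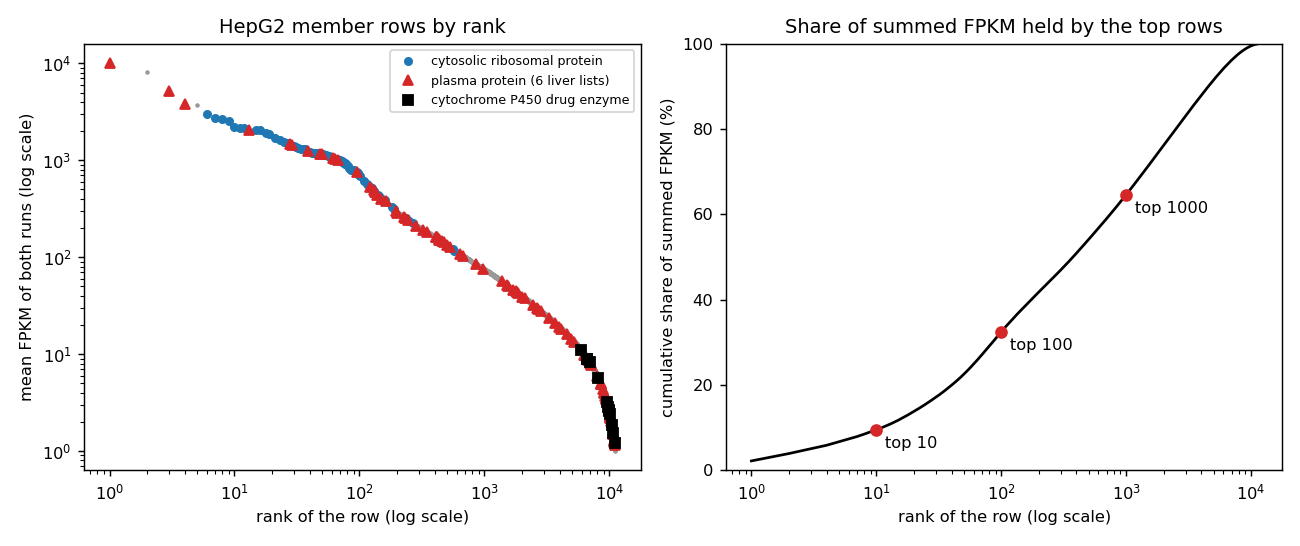
Left, mean FPKM of both runs (log scale) of each member row against its rank (log scale), with ribosomal protein, plasma protein and cytochrome P450 rows marked. Right, the share of the summed FPKM (%) held by the rows up to each rank, with points at 9.46% for the top 10, 32.5% for the top 100 and 64.6% for the top 1000.

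The RNA, counted per length, was concentrated in few rows. The 10 highest members held 9.46% of the summed FPKM of all members, the 30 highest 17.1%, the 100 highest 32.5% and the 1000 highest 64.6%. When all rows of the table were ranked, unnamed ones included, the top 10 held 41.1% and the top 100 held 61.7% of all FPKM. Among the members, 375 rows held 50% of the sum and 4531 rows held 90%. The median member stood at 12.2 FPKM, with quartiles of 5.26 and 28.3 FPKM. At 1000 FPKM or more there were 68 rows, which held 26.7% of the sum, and from 100 to under 1000 FPKM there were 639 rows with 32.6%. The 829 rows from 1 to under 2 FPKM held 0.270%. These are shares of transcripts per length and not of reads, in which long mRNAs such as APOB would weigh more.

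Among members with a single symbol, protein-coding genes made up nearly all of the summed FPKM. Rows without a symbol, which held 44.2% of all FPKM in run 1 and 49.5% in run 2, are outside this share. Named rows that reached 1 FPKM in a single run are outside it too. Of 10524 members with a single symbol, 10020 matched a protein-coding gene in RefSeq and held 96.8% of the FPKM of these rows. There were 100 long noncoding RNAs with 0.453%, 22 small nucleolar RNAs with 0.398% and 13 microRNA loci with 0.706%, beside 11 pseudogenes with 0.751% and 229 unmatched symbols with 0.705%.

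**Figure D2:**
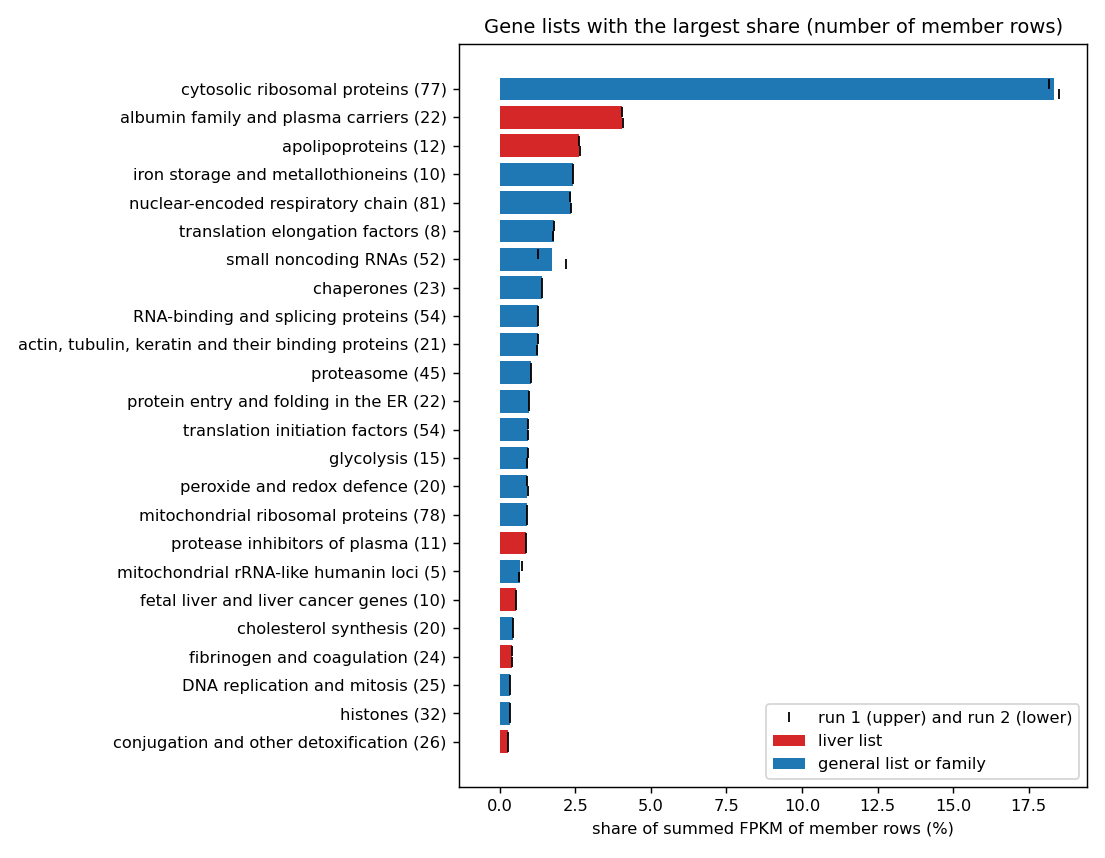
Share of the summed FPKM of member rows (%) in the 24 lists or families with the largest share, with the number of member rows in brackets, liver lists in red and general lists in blue. Bars start at 0 and give the mean of both runs, ticks give each run, and ribosomal proteins (18.3%) stand above all others while the small noncoding RNAs differ between runs (1.26% and 2.20%).

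Ribosomal proteins were the largest of the listed groups, while 10259 rows in no list held 51.0% of the summed FPKM. Their 77 rows, 0.689% of the members, held 18.3% of the summed FPKM of the members, or 9.26% of the FPKM of all rows, with a median of 1029.5 FPKM beside 12.2 for all members. All 77 were among the 1000 highest rows, and 60 of the 100 highest rows belonged to them. The 3 highest were RPL37A, RPS29 (2662 and 2749 FPKM) and RPS12 (2633 and 2724 FPKM). Each of these proteins is present in about equal number in a ribosome, but their rows were not equal in FPKM. The quartiles were 748 and 1318 FPKM, a 1.76-fold range, and 65 rows stood at 500 FPKM or more. Among the lowest were RPL27A at 123 and 119 FPKM and RPS26 at 231 and 223 FPKM. Ribosomal protein genes have many processed pseudogenes, and how the authors treated reads that match several places is not given in the sources used here, so single values are uncertain.

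Other parts of protein synthesis held less. The list of translation elongation factors, which here includes TPT1, held 1.78% in 8 rows, led by EEF1A1, TPT1 (0.443%) and the row of EEF1G and TUT1 (789 and 768 FPKM). EEF1A2, the form of EEF1A1 used in muscle and nerve, stood at 1.03 and 0.789 FPKM and is no member. Initiation factors held 0.937% in 54 rows, led by PABPC1, the poly(A)-binding protein, at 287 and 286 FPKM, and mitochondrial ribosomal proteins held 0.902% in 78 rows at a median of 42.6 FPKM. The entry of proteins into the endoplasmic reticulum and their folding there, the route of every secreted protein, held 0.955% in 22 rows. All 22 listed genes of this route were members, from 45.3 to 460.5 FPKM in mean, led by P4HB (disulfide isomerase), CALR (calreticulin) and HSP90B1. Chaperones held 1.40% in 23 rows, led by HSPD1, HSP90AB1 and HSPA8, and the proteasome held 1.03% in 45 rows, led by PSMA6, PSMB5 and PSMA7.

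Iron storage and metallothioneins held 2.42% in only 10 rows, of which FTL and FTH1 alone made 2.13%. FTL exceeded FTH1 by 4.45-fold per length. FTH1 stood at 1838 and 1787 FPKM, and MT2A, a metallothionein that binds zinc and copper, at 751 and 784 FPKM. The nuclear-encoded respiratory chain held 2.34% in 81 rows at a median of 97.2 FPKM, led by ATP5E, COX7C and ATP5B. The mitochondrial genome itself was not estimated, since its row carries a status for excess data and is listed at 0. Peroxide and redox defence held 0.915% in 20 rows, led by PRDX1 (701 and 722 FPKM), TXN and the row of GPX2 and RAB15. GSTP1, a glutathione transferase, was the lowest of the 20 at 1.68 and 2.05 FPKM.

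Plasma proteins were the part of the liver program with most RNA. The 6 lists of plasma proteins held 8.34% of the summed FPKM in 97 rows, and the other 9 liver lists held 1.33% in 124 rows. Together the 15 liver lists held 9.68%, and 14 of the 100 highest rows belonged to them. Of 109 listed plasma protein genes, 100 were members, 43 of them at 100 FPKM or more in mean. Of the 152 other liver genes, 120 were members, 14 of them at 100 FPKM or more. Among these members, 13 plasma protein genes and 4 others lie in rows of several symbols. Each such gene was counted at the value of its row. Over the genes that were members, the median was 47.4 FPKM for plasma proteins and 14.7 for the others, beside 12.2 for all members. With the listed genes below the threshold included, the medians were 41.0 and 8.58 FPKM.

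**Figure D3:**
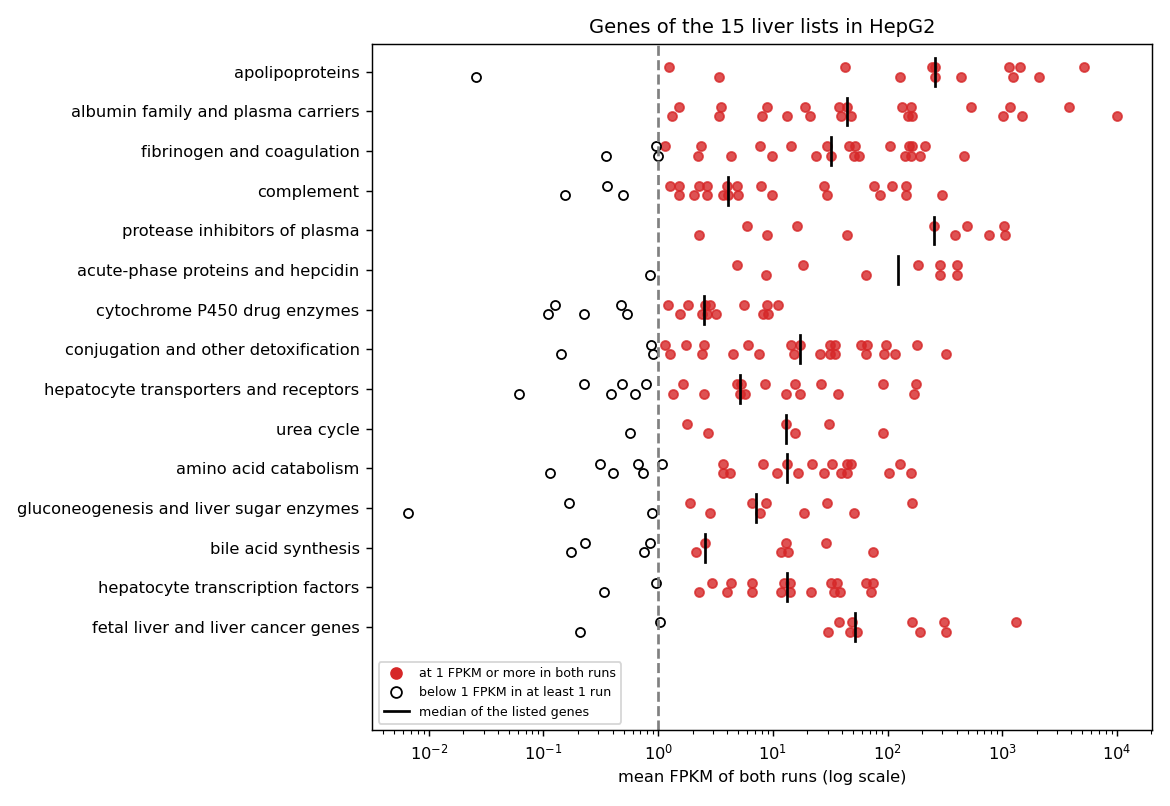
Mean FPKM of both runs (log scale) of each gene of the 15 liver lists, filled where the gene reached 1 FPKM in both runs and open where it did not, with the median of the listed genes as a black line and 1 FPKM as a dashed line. Apolipoproteins (median 257 FPKM) and plasma protease inhibitors (256 FPKM) lie far to the right of bile acid synthesis (2.54 FPKM) and cytochrome P450 (2.50 FPKM).

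Apolipoproteins, which carry lipids in blood, were members in 13 of 14 cases, and 10 of them stood at 100 FPKM or more. APOB, the large protein of very-low-density lipoprotein, stood at 1237 and 1265 FPKM and APOE, a ligand of lipoprotein receptors, at 1161 and 1143 FPKM. APOA2 exceeded APOA1 by 3.65-fold per length. APOC2 and APOC4 share a row (255 and 260 FPKM) and cannot be separated. The low end was APOF (3.74 and 3.08 FPKM) and APOA4 (1.20 and 1.31 FPKM), and LPA, apolipoprotein(a), did not reach the threshold at 0.0156 and 0.0362 FPKM.

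All 23 carrier proteins were members, LCAT only through a row shared with PSMB10 and SLC12A4, but their FPKM ranged from 1.31 to 10011. SEPP1, the selenium carrier, stood at 1146 and 1187 FPKM and TF, transferrin, at 1005 and 1006 FPKM. RBP4, the carrier of retinol, stood at 541 and 531 FPKM, above its partner TTR, transthyretin, at 157 and 147 FPKM. GC, the vitamin D-binding protein and a close relative of ALB and AFP, stood at only 8.90 and 9.02 FPKM, and AFM, another member of that family, at 1.40 and 1.61 FPKM. HPX, which binds heme, was at 18.8 and 19.6 FPKM, and PON1, an esterase carried by high-density lipoprotein, at 1.53 and 1.10 FPKM.

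Of the 11 plasma protease inhibitors, all were members and 6 stood at 100 FPKM or more. SERPINA1, the inhibitor of neutrophil elastase, stood at 1064 and 1058 FPKM. A2M, alpha-2-macroglobulin, followed at 1045 and 1025 FPKM and AMBP, the precursor of bikunin, at 763 and 757 FPKM. Within the inter-alpha-trypsin inhibitor family, ITIH2 stood at 489 and 493 FPKM, while ITIH1 stood at 2.25 in each run.

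Fibrinogen and coagulation held 0.415%, with 22 of 25 genes members. The 3 chains of fibrinogen, which assemble in equal numbers, were not equal in FPKM. FGG stood at 467 and 465 FPKM, FGA at 209 and 214 FPKM and FGB at 57.0 and 56.2 FPKM, so that FGG exceeded FGB by 8.23-fold and FGA exceeded FGB by 3.73-fold per length. SERPINA5, the protein C inhibitor, stood at 193 and 191 FPKM and F2, prothrombin, at 145 and 139 FPKM. F12, the starter of the contact pathway, stood at 2.28 and 2.18 FPKM and PLG, plasminogen, at 2.62 and 2.14 FPKM. F9, the gene of haemophilia B, was at 0.873 and 1.04 FPKM, F13B at 1.04 and 0.929, and HABP2, a protease that binds hyaluronan, at 0.395 and 0.306. F9 and F13B thus passed 1 FPKM in a single run each.

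Complement had 22 of 26 genes as members and the lowest median of the plasma lists, 4.03 FPKM. C3, the central component, stood at 305 and 290 FPKM, the row shared by C2 and CFB at 147 and 144 FPKM, and CFI, which cleaves C3b, at 111 and 106 FPKM. The parts of the membrane attack complex differed widely, with C5 at 75.3 and 76.3 FPKM, C8A at 4.87 and 5.13 FPKM, C9 at 2.45 and 1.65 FPKM and C6 at 1.58 and 1.43 FPKM. CFHR3, CFHR4 and CFHR5, relatives of factor H, were below 1 FPKM in both runs. C4A is not listed. C4B, a near-identical copy that can share its reads, has 9 rows, and the highest of them stood at 2.72 and 2.63 FPKM. C2 and CFB are each found in 7 rows, and the highest is given there too. Levels summed over such rows are not given, so these values can understate the genes.

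Among acute-phase proteins, 9 of 10 genes were members, 5 of them through rows of several symbols. LEAP2 was a member only through a row shared with UQCRQ. The row of ORM1 and ORM2, orosomucoid, stood at 409 and 398 FPKM, the row of SAA2 and SAA4 at 284 and 294 FPKM, and HAMP, the iron hormone hepcidin, at 174 and 192 FPKM. CRP, C-reactive protein, was at 4.55 and 5.20 FPKM, and LBP, which binds bacterial lipopolysaccharide, did not reach 1 FPKM (0.757 and 0.946).

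The drug-metabolizing cytochromes P450 were the liver list with the smallest share, 0.0131% in 13 rows. Their summed FPKM was 61.0, and ALB alone stood 164 times higher. Of 18 genes 13 were members. The highest were CYP3A5 (10.9 and 11.1 FPKM), the row of CYP4F3 and CYP4F8 (9.24 and 8.72 FPKM) and CYP3A7 (8.48 and 9.31 FPKM). CYP3A7 is the form of fetal liver, and it exceeded CYP3A4, the main drug-oxidizing enzyme of adult liver (2.63 and 2.49 FPKM), by 3.48-fold. These genes are close in sequence and their reads may be shared. CYP1A1, induced through the aryl hydrocarbon receptor, stood at 8.32 and 8.13 FPKM and CYP2E1, which oxidizes ethanol, at 6.03 and 5.19 FPKM. CYP1A2, CYP2B6, CYP2C18, CYP2C19 and CYP4A11 lay between 0.0873 and 0.546 FPKM in the runs and were no members.

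Conjugating enzymes stood higher, with 24 of 27 genes as members and a median of 17.3 FPKM over the listed genes. ALDH1A1, a retinal dehydrogenase, stood at 324 and 327 FPKM. SULT2A1, which adds sulfate to steroids, stood at 179.9 and 184 FPKM, and UGT2A3, a glucuronosyltransferase, at 114 and 119.9 FPKM. UGT2B15 (1.06 and 0.723 FPKM) and UGT2B17 (0.188 and 0.0960 FPKM), which act on steroids, were among those that were no members. Of the alcohol dehydrogenases, ADH6 stood at 34.4 and 35.4 FPKM and ADH4 at 25.6 and 26.1 FPKM, above ADH1B at 4.48 and 4.43 FPKM. ALDH2, the mitochondrial acetaldehyde dehydrogenase, was listed at 98.0 and 95.1 FPKM, but its row is 1 of 5 member rows whose status says that the estimate failed, the others being LAMC1, HNRNPC, ADRM1 and LAMA5.

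Transporters and receptors of the hepatocyte surface were uneven. ASGR1 and ASGR2, the subunits of the asialoglycoprotein receptor, stood at 181 and 171 FPKM and at 175 and 168 FPKM, and ABCC2, the export pump for conjugates, at 90.9 and 91.8 FPKM. Uptake and export of bile acids were at the bottom of the list. SLC10A1, the sodium-dependent bile acid importer, was at 0.683 and 0.574 FPKM, SLCO1B1 at 0.927 and 0.627 FPKM, SLCO1B3 at 0.497 and 0.273 FPKM and ABCB11, the bile salt export pump, at 0.0434 and 0.0788 FPKM. AQP9, a channel for glycerol, and GHR, the growth hormone receptor, were also below 1 FPKM, so that 6 of 22 genes were no members.

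Bile acid synthesis was uneven along its steps. CYP7A1, the rate-limiting enzyme of the classical pathway, was at 0.216 and 0.240 FPKM, CYP8B1, which sets the cholic acid share, at 0.740 and 0.770 FPKM, and CYP7B1 at 0.190 and 0.156 FPKM. CYP27A1, which opens the alternative pathway, stood at 75.5 and 73.6 FPKM, and HSD3B7 and AKR1D1, which act on the ring, at 30.1 and 27.7 FPKM and at 13.6 in each run. AKR1C4 was at 0.886 and 0.826 FPKM. In all, 7 of 11 genes were members.

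Of the urea cycle, 6 of 7 genes were members. ASS1 and ASL, argininosuccinate synthase and lyase, stood at 94.0 and 89.9 FPKM and at 31.7 and 29.8 FPKM, and the mitochondrial ornithine carrier SLC25A15 at 15.7 and 15.5 FPKM. CPS1, which takes up the ammonia, stood at 13.3 and 12.9 FPKM, and ARG1, which releases urea, at 1.83 and 1.77 FPKM. OTC, the step between CPS1 and ASS1, was at 0.563 and 0.569 FPKM.

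Amino acid catabolism had 17 of 23 genes as members. Enzymes of tyrosine breakdown were among the highest, with HPD at 128.5 and 127.9 FPKM, HGD at 100.2 and 104 FPKM and FAH at 43.4 and 44.4 FPKM. TAT, the aminotransferase that opens this route, stood at 3.91 and 3.40 FPKM. The genes that were no members were TDO2 of tryptophan breakdown (1.18 and 0.962 FPKM), KMO of the same route, SDS (serine), HAL and UROC1 (histidine) and GLYAT (glycine conjugation), which lay between 0.103 and 0.762 FPKM apart from TDO2.

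In sugar metabolism some isoenzymes of other tissues stood above those of adult liver. PKM2, the older symbol of the muscle-type pyruvate kinase gene, whose row does not separate its isoforms, stood at 214 and 208 FPKM and PKLR, the liver form of pyruvate kinase, at 8.55 and 8.72 FPKM, a ratio of 24.4. Hexokinase HK2 stood at 15.5 and 15.6 FPKM. In gluconeogenesis, PCK2, the mitochondrial phosphoenolpyruvate carboxykinase, stood at 167 and 162 FPKM and PCK1, the cytosolic form, at 2.70 and 2.91 FPKM, a ratio of 58.7. Both are among the listed liver genes, so this pair does not set another tissue against liver. FBP1, fructose bisphosphatase, was at 0.656 and 1.10 FPKM and GYS2, the glycogen synthase of liver, at 0.150 and 0.185 FPKM, while G6PC, the last step of glucose release, stood at 1.77 and 2.05 FPKM. Not all liver forms stood below a form of another tissue. PFKL, the liver form of phosphofructokinase, exceeded PFKM of muscle by 68.8-fold (49.0 and 45.3 FPKM against 0.758 and 0.613). LDHA exceeded LDHB, the form of heart, by 99.8-fold. Glycolysis as a whole held 0.920% in 15 rows, led by GAPDH, ENO1 and ALDOA.

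Lipid synthesis stood well above the median member. All 20 listed cholesterol genes that the table holds were members, from 11.5 to 273 FPKM in mean, with the row of CYBA and MVD at 280.1 and 266 FPKM and FDFT1, squalene synthase, at 221 and 217 FPKM. SCD, which makes oleate, stood at 343 and 333 FPKM and FABP1, the fatty acid-binding protein of liver, at 274 and 260.1 FPKM. ME1, malic enzyme, was the only one of 11 fatty acid genes below the threshold, at 0.0295 and 0.132 FPKM.

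The transcription factors of hepatocytes were members in 18 of 20 cases, at moderate FPKM. NR0B2, the small heterodimer partner, stood at 74.0 and 76.2 FPKM, CEBPA at 70.6 and 71.5 FPKM and HNF4A at 66.6 and 62.7 FPKM. NR1H4, the bile acid receptor, stood at 36.2 and 36.8 FPKM, and NR1I3, a receptor that responds to drugs, at 2.50 and 2.002 FPKM. FOXA1, which opens chromatin at liver genes, stood at 32.4 and 32.3 FPKM. Among the genes below the threshold, NR5A2, a nuclear receptor that acts on bile acid genes, was at 0.273 and 0.399 FPKM.

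Genes of fetal liver and liver cancer were high where present. AFP stood at 3798 FPKM in mean, and ALB exceeded it by 2.64-fold. GPC3, a glypican used as a marker of liver cancer, stood at 1310.4 and 1352 FPKM, PEG10 at 318 and 323 FPKM, and the row of DGKZ and MDK, where MDK encodes the growth factor midkine, at 326 and 301 FPKM. DLK1, a surface protein of hepatoblasts, stood at 167 and 162 FPKM and LIN28B, which blocks let-7 maturation, at 38.2 and 37.8 FPKM. SALL4 was at 0.153 and 0.263 FPKM. H19 shares its row with MIR675 at 0.932 and 1.14 FPKM and was no member.

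In all, 220 of 261 liver genes were members, 40 were below the threshold and 1 is not listed. Of the 220, 17 were members through a row of several symbols, so their own level is not known. Of the 40 below the threshold, 34 were below 1 FPKM in both runs and 6 passed it in a single run (F9, F13B, UGT2B15, TDO2, FBP1 and H19). Their median was 0.441 FPKM, 15 of them lay from 0.5 to under 1 FPKM in mean, 3 lay below 0.1 FPKM, and none was at 0 in both runs. In contrast, 6104 of all named rows were at 0 in both runs and 5706 lay above 0 but below 1 FPKM in both. Without read counts the precision of such values is unknown. The members just inside the threshold included NAT2, an acetyltransferase of drugs (1.0001 and 1.31 FPKM), ALOX5AP (1.17 and 1 FPKM), MAP3K14 (1.01 and 1.001 FPKM) and FRMPD2. Just outside were ZBTB26 (1.38 and 0.999 FPKM), CBLC (1.19 and 0.999 FPKM), LOC283335, ZNF232 and COL1A2 (1.32 and 0.996 FPKM).

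Markers of other cells of the liver were mostly low, as 8 of 47 listed genes were members. None of the 8 endothelial, 7 lymphocyte and 7 red cell precursor genes was a member, and the summed FPKM of these lists was at most 1.998, 1.58 and 0.162 in a run. PTPRC, C1QA and C1QC of macrophages, CD3E, MS4A1 and NKG7 of lymphocytes, and HBA2, HBG1 and HBG2 of red cells were listed at 0 in both runs. LYZ, lysozyme, stood at 1148 and 1198 FPKM at rank 47, and CD68 lies in a row of 7 symbols that includes EIF4A1 (541 and 544 FPKM) and cannot be separated from it. The other 8 macrophage genes summed to 0.0820 and 0.187 FPKM. Of 6 bile duct genes, SPP1 (433 and 439 FPKM), KRT19 (113 and 106 FPKM), EPCAM (97.2 and 96.6 FPKM) and SOX9 (40.1 and 39.5 FPKM) were members, while KRT7 was at 0.0920 and 0.126 FPKM and CFTR at 0. Of 9 stellate cell and fibroblast genes, ACTA2 (34.1 and 33.6 FPKM) and PDGFRB (2.06 and 1.95 FPKM) were members. VIM, a filament of mesenchymal cells, stood at 0.254 and 0.444 FPKM, beside KRT18 of epithelia at 241 and 243 FPKM.

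**Figure D4:**
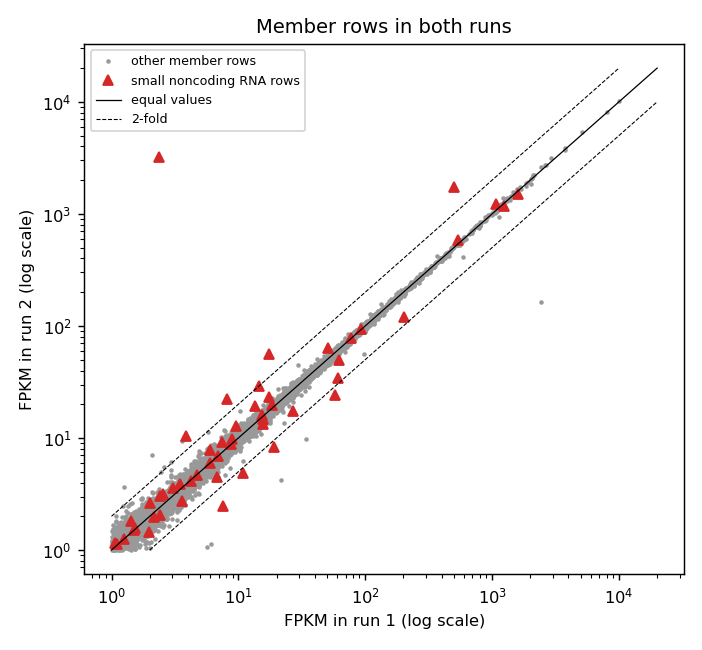
FPKM in run 2 against run 1 (log scales) for the 11172 member rows, with small noncoding RNA rows as red triangles, a solid line of equal values and dashed lines at 2-fold. Most rows lie on the line, and 19 lie outside the dashed lines, among them the row of SNORA76 and SNORD104 at 2.38 and 3212 FPKM.

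Over the members, which had to reach 1 FPKM in both runs, the runs gave nearly the same levels. Another 321 named rows reached 1 FPKM in a single run and were left out by that rule. The median absolute log2 difference between the runs was 0.06 over all members. It was 0.16 for members from 1 to under 2 FPKM and 0.03 for those at 100 FPKM or more. Past 2-fold were 19 members, beside 0.716% of the 11729 rows with a mean of at least 1 FPKM and values above 0 in both runs. Since members had to reach 1 FPKM in both runs, nothing is read from that comparison. Of the 19, 10 have a small RNA in their row, while 67 of all 11172 members do. The row of SNORA76 and SNORD104, small nucleolar RNAs, was at 2.38 FPKM in run 1 and 3212 in run 2. NOP56, a protein of small nucleolar particles, was at 2436 and 162 FPKM. MIR1260B was at 501 and 1731 FPKM, the row of CCT6P1 and SNORA22 at 21.5 and 4.18 FPKM, and that of C11orf83 and METTL12 at 34.2 and 9.81 FPKM. The mean rank of the SNORA76 and SNORD104 row rests on run 2, and what sets the runs apart was not tested. The small noncoding RNAs as a family held 1.26% of the summed FPKM in run 1 and 2.20% in run 2.

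Loci of 4 microRNAs stood among the 58 highest rows, and 3 of them are shown with the mature RefSeq sequence, 5′ to 3′, to make clear which short RNAs these rows name, with the seed (bases 2 to 8) in capitals. Coordinates are in GRCh38.p14.
hsa-miR-3648 (chr21:8987026-8987046, plus strand): aGCCGCGGggaucgccgaggg
hsa-miR-3661 (chr5:134225777-134225798, plus strand): uGACCUGGgacucggacagcug
hsa-miR-1260b (chr11:96341447-96341465, plus strand): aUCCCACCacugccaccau

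The 3 seeds differ. The row of MIR3648 and MIR3687 stood at 1589 and 1517 FPKM and MIR3661 at 1231 and 1178 FPKM. These are values of rows in a library of long RNA, given per length of a very short feature, and they do not measure mature microRNA. The mature miR-3648 is given at the copy of its gene that the table holds.

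**Figure D5:**
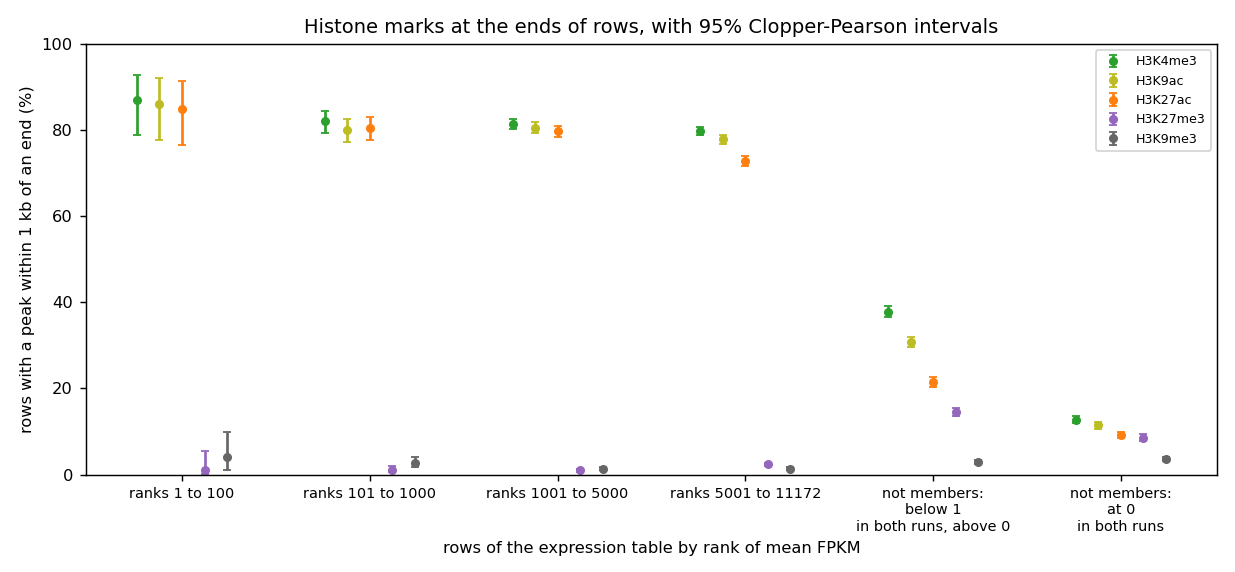
Share of expression table rows (%) with a peak of each histone mark within 1 kb of either end, by rank of mean FPKM, with 95% Clopper-Pearson intervals. Rows that share their coordinates with another row are included. H3K4me3 stays between 79.8% and 87.0% in the 4 classes of members and is at 37.8% in named rows below 1 FPKM and 12.7% in rows at 0, while H3K27me3 is at 14.4% and 8.58% in these 2 classes.

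Histone marks come from other libraries and were not used to choose the members. H3K4me3, H3K9ac and H3K27ac are found at active promoters, H3K27me3 at genes silenced by Polycomb and H3K9me3 in heterochromatin. Peaks of H3K4me3 lay within 1 kb of an end of 80.6% of the member rows (95% Clopper-Pearson interval 79.9 to 81.4), of H3K9ac at 79.1% (78.4 to 79.9) and of H3K27ac at 76.0% (75.2 to 76.8). H3K27me3 lay at 1.75% (1.52 to 2.02) and H3K9me3 at 1.48% (1.26 to 1.72). Among named rows above 0 but below 1 FPKM in both runs, H3K4me3 lay at 37.8% (36.5 to 39.1) and H3K27me3 at 14.4% (13.5 to 15.4). Named rows at 0 in both runs had H3K4me3 at 12.7% (11.9 to 13.6) and H3K27me3 at 8.58% (7.89 to 9.32). Within the members, H3K4me3 lay at 87.0% of ranks 1 to 100 (78.8 to 92.9) and at 79.8% of the ranks beyond 5000 (78.8 to 80.8). H3K27ac lay at 85.0% (76.5 to 91.4) and 72.8% (71.7 to 74.0) of the same classes. H3K27me3 lay at 0.950% (0.673 to 1.30) of the ranks from beyond 1000 to 5000 and at 2.38% (2.02 to 2.79) beyond. The intervals cover counting error only, there is 1 library per mark, and rows are not replicates, so no test was made. In addition, 4606 member rows share their coordinates with another row, so that an end need not be the end of that gene. Among rows with coordinates of their own, H3K4me3 lay at 87.8% of ranks 1 to 100 and at 88.0% of the ranks beyond 5000. H3K27ac lay at 87.8% and 79.3% of these. Of named rows with their own coordinates, H3K4me3 lay at 30.4% of those above 0 but below 1 FPKM in both runs. At 0 in both runs, such rows had H3K4me3 at 4.02% and H3K27me3 at 9.07%.

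The 2 groups that hold most RNA differed in these shares. Of the 77 ribosomal protein rows, 90.9% had H3K4me3 at an end (82.2 to 96.3), and of the 97 plasma protein rows 58.8% did (48.3 to 68.7). Among rows with coordinates of their own, the shares were 93.5% of 31 and 52.2% of 69. For H3K27ac they were 87.0% of the 77 ribosomal protein rows and 64.9% of the 97 plasma protein rows. Median FPKM differed between these groups as well, 1029.5 against 39.3, and the part of expression level in the difference was not tested. ALB and AFP had H3K4me3 and H3K9ac but no H3K27ac peak within 1 kb of an end, while APOA2, APOH and AHSG had all 3.

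At least 1 of the 3 activation marks lay within 1 kb of an end at 82.9% of all members (82.2 to 83.6) and at 89.0% of the 100 highest rows (81.2 to 94.4). Among rows with coordinates of their own, these shares were 91.5% and 91.8%. Of the 100 highest rows, 11 had none of the 3 activation marks within 1 kb of an end. Among them were RPS29, MTRNR2L2, the row of MIR3648 and MIR3687, the row of RPL27 and RUNDC1, RPL7, SEPP1, SNORD79, HSPD1, MTRNR2L9 and TF. Of those named, RPS29, MTRNR2L9 and TF have coordinates of their own, and RPS29 and MTRNR2L2 had a mark within 2 kb.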

How the data were processed

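RNA of HepG2 was sequenced in 1 sample (total RNA, Ribo-Zero removal of ribosomal RNA, NEBNext library, Illumina sequencing). The authors deposited FPKM values in 2 columns of a table in the layout that Cuffdiff writes, and the paper calls expression RPKM. The submitters' processing notes name TopHat2 2.1.0, Bowtie, HOMER 4.7, edgeR and hg19, without roles. The labels of the columns differ only in a short code, and what the code stands for is not given in the sources used here, so they are called runs here and were counted as 1 replicate and no test was possible. The authors' own comparison of the columns (fold change, test statistic, p, q and a significance call) was not used. Read counts were not used here, so depth is unknown. The 977 rows with the lowest values showed only a relative step, most often 0.868 of run 1 over run 2, in 12.2% of them. The members summed to 462413 FPKM in run 1 and 466481 in run 2. Rows without a symbol held 44.2% and 49.5% of all FPKM, the 10 highest of them 53 to 119 bp long, and were left out.

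The authors called ChIP-Seq peaks per library at nucleosome positions with NUCLIZE against input and deposited coordinates without heights.

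Members were ranked by the mean of both runs. Shares of summed FPKM were computed over 33 gene lists and 9 name families, each row counted once. In counts and medians of listed genes, a gene with several rows was taken at the row with the highest mean. 648 member rows carry several symbols and hold 8.34% of the sum. The members and lists were chosen with earlier results of these data known. Genes are named by rule: the 30 highest members, the 3 highest of each list, every liver gene that is no member, the 5 rows on each side of the threshold, the 5 largest differences between runs among members at a mean of 10 FPKM or more, the 5 highest rows present in a single run, and other-cell markers that are members. Some genes that the rule names are not reported here. Further genes of the lists, isoenzyme pairs and rows without activation marks were named after their values had been seen. RefSeq tables (GRCh38.p14) gave gene types, promoters and mature microRNAs, matched by symbol; 8389 of 10524 single-symbol members had a promoter. Counting steps were tested on simulated data. Alternatives were thresholds of 0.5 and 2 FPKM, either run alone, rows under 300 bp left out, all rows as the total, distinct symbols, a pseudocount of 1, and 2 kb or rows with coordinates of their own for marks. Added after seeing the data were leaving out rows with a small RNA and rows with several symbols. Figures were drawn with matplotlib 3.10.9, and tables computed with pandas 2.3.3 and numpy 2.4.6, exact intervals with scipy 1.17.1, all in Python 3.11.15.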

Additional observations from a re-analysis of the deposited data

How the results depend on the processing

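The number of members stayed within 1.5 times of 11172 at thresholds of 0.5 and 2 FPKM, with either run alone and with rows of the same symbol added. With run 2 alone, the top 10 held 9.77% and the top 100 held 33.0% of the summed FPKM. With all rows of the table, unnamed ones included, as the total, the top 10, 100 and 1000 rows held 41.1%, 61.7% and 81.3%, and the liver lists and ribosomal proteins held 4.89% and 9.26%. Without rows that hold a small RNA, the top 1000 held 64.3%, the liver lists 9.87% and the ribosomal proteins 18.7%, and with single-symbol rows only the lists held 10.2% and 18.8%. The main values are 9.46%, 32.5%, 64.6%, 9.68% and 18.3%. At a threshold of 0.5 FPKM, 23 liver genes were missing in place of 40, and at a threshold of 2 FPKM, 59 were. With a pseudocount of 1 and no filter on low values, 71 rows passed 2-fold between runs in place of 19 members. Within 2 kb of an end, H3K4me3 lay at 85.0%, H3K9ac at 84.2%, H3K27ac at 81.2%, H3K27me3 at 2.65% and H3K9me3 at 2.60% of the members, and for rows with coordinates of their own H3K4me3 lay at 89.6%, H3K9ac at 88.1%, H3K27ac at 84.2% and H3K27me3 at 1.20%. With all rows as the total, 39 of 39 list shares moved by over 1.5 times. Under single-symbol rows 2 of 39 did, and without rows that hold a small RNA 1 did. No paired analysis was possible because there is 1 sample per assay and no test. Depth is unknown, so the precision of values near 1 FPKM is too.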

Other observations

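Genes of DNA replication and mitosis were all members, 25 of 25, at a median of 56.8 FPKM, and held 0.342% of the summed FPKM. PCNA, the sliding clamp of replication, stood at 264 FPKM in each run, TOP2A, topoisomerase II alpha, at 132 and 130.2 FPKM, and the row of DCTN5 and PLK1, where PLK1 is a mitotic kinase, at 106 and 104 FPKM. MKI67, the antigen used to count dividing cells, stood lowest of the 25 at 12.7 and 12.6 FPKM. Histone genes held 0.329% in 32 rows, and the median histone row stood at 3.96 FPKM. The highest were H3F3A (397 and 406 FPKM), H2AFZ (375 and 383 FPKM) and H3F3B (208 and 195 FPKM), variants made outside of S phase as well as in it.

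Of 13 long noncoding RNAs listed, 10 were members. SNHG5, a host of small nucleolar RNAs, stood at 375 and 377 FPKM, MALAT1, a nuclear RNA, at 182 and 202 FPKM, and the row of GAS5 and SNORD80 at 172 and 168 FPKM. HULC, named for its high level in liver cancer, stood at 12.4 and 12.99 FPKM. HOTAIR was listed at 0 in both runs and MEG3 at 0.0231 FPKM in run 1 and 0 in run 2.

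Outside the members, 321 named rows reached 1 FPKM in a single run, and 51 of them have a small RNA in the row. The highest were MIR3650 (0 and 7706 FPKM), IL12RB2 (5476 and 0.0324 FPKM), SNORD102 (0 and 5346 FPKM), SNORD50B (3354 and 0 FPKM) and SNORD2 (0 and 2554 FPKM). Of the 15 highest such rows, 14 have a small RNA in the row. Such rows at these values would rank among the highest of the table by their mean, and the cause was not tested.

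Of the 1000 highest members, 11 had H3K27me3 within 1 kb of an end, beside 196 of all 11172 members (1.75%). The highest of them were A2M (1045 and 1025 FPKM), RPL18 (601 and 613 FPKM) and the row of NCRNA00188 and SNORD49B (393 and 401 FPKM). A2M and RPL18 share their coordinates with another row, so the marked end need not be their own. With rows of shared coordinates left out, H3K27me3 lay at 0 of 49 rows of the 100 highest. It lay at 2 of 564 such rows from beyond rank 100 to rank 1000, and at 79 of all 6566 such members (1.20%).

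Chromosome 4 held 6.05% of the summed FPKM of the members, and its genes ALB and AFP held 2.16% and 0.818% of that sum. The share of member rows on this chromosome was not counted, so the 6.05% cannot be called high or low.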
